A study of Homo sapiens with 27 samples.

Results

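Oxidative phosphorylation in the mitochondrion is carried out by 5 protein complexes, and the genes of the nucleus that encode their subunits are described here. The members were the protein-coding genes whose symbols belong to the subunit families of complex I (NDUFA, NDUFB, NDUFC, NDUFS and NDUFV, without the NDUFAF assembly factors), complex II (SDHA to SDHD), complex III (UQCR), complex IV (COX4 to COX8) and complex V (ATP5). This rule found 90 of 19310 protein-coding genes: 38 of complex I, 4 of complex II, 9 of complex III, 19 of complex IV and 20 of complex V. NDUFA4 and its paralog NDUFA4L2 were counted with complex IV, where the NDUFA4 protein is now placed, and ATP5IF1, the inhibitor of ATP synthase, was counted with complex V. The filter on low counts left 82 members testable in RNA-seq, 79 in Ribo-seq and 78 in the ratio of the assays. The rule used symbols only and no measured value.

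The cells were IMR90, an established line of human lung fibroblasts of fetal origin, labelled wild type where a genotype is given, so all groups are states of 1 line. RNA-seq and Ribo-seq, which sequences the footprints of mRNA left inside ribosomes after RNase, were prepared from lysates made with cycloheximide, and they gave 13 and 14 libraries. Cycling cells were harvested below confluence (2 RNA-seq and 3 Ribo-seq libraries), and quiescent cells were arrested by contact inhibition (3 and 3). Senescence was induced by 15 Gy of ionizing radiation with harvest after 10 days (3 and 3), or by 3 treatments with 50 µM etoposide, a topoisomerase II poison, over 10 days (3 and 3). Cycling cells were also treated with 25 nM thapsigargin for 3 h (2 and 2), which blocks the SERCA calcium pump. The medium of the thapsigargin-treated cells is described without antibiotics and that of the other cells with them. All 4 thapsigargin samples, those titled RNA-seq included, carry a characteristic that names ribosome-protected fragments, and their assay was taken from the titles. No label says whether replicates came from separate cultures, so p-values measure the spread between libraries, which may be partly technical.

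In the respiratory chain, complex I takes electrons from NADH and complex II takes them from succinate. Complex III passes them to cytochrome c and complex IV passes them to oxygen. The protons that complexes I, III and IV pump drive ATP synthesis by complex V. Most subunits are encoded in the nucleus, translated in the cytosol and imported, while a small core is encoded by mitochondrial DNA, and several subunits of complex IV exist as isoforms used in different tissues or oxygen levels. Senescent fibroblasts are known for a large mitochondrial mass with altered respiration.

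Gene counts per library ran from 20635503 to 57119841 in RNA-seq and from 1936976 to 19996104 in Ribo-seq, and the thapsigargin Ribo-seq libraries were the shallowest. Fibroblast markers (9 of 9 detected) summed to between 9017 and 14623 CPM (counts scaled to the library size) in RNA-seq and between 12422 and 37381 CPM in Ribo-seq, whereas epithelial, endothelial and immune markers each summed to at most 2.62 CPM in either assay. Quiescent replicate 1 of the Ribo-seq stood apart from its group, with 3754 CPM of the collagen gene COL1A1 against 8948 and 12022 in the other 2. The thapsigargin RNA-seq libraries had 1.35% and 1.40% of reads unmapped against 27.8% to 40.6% in the others. In thapsigargin Ribo-seq, 65.2% and 66.9% of reads mapped to several places, against 19.8% to 31.9% elsewhere. The thapsigargin Ribo-seq libraries were also counted against another gene list than the other 12. How far these differences enter the thapsigargin comparisons was not tested. Reads with several places were not counted, and 50 of the 90 members have a named pseudogene (191 pseudogenes in all). Their levels can therefore be understated and are uncertain. A pseudogene was counted only if its symbol was that of the member followed by P, so others were missed. In bulk samples, fewer cells of a kind and less RNA per cell cannot be told apart.

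The start regions of 6 members whose values are described in detail are shown because these genes moved in opposite directions. NDUFA2 and UQCRQ were higher in senescent cells in both assays, and COX6A1 was higher in footprints. NDUFA9 was lower in RNA. COX4I1 and UQCRH were called lower in footprints, and their RNA was called in no arrested state against cycling cells. The edgeR test of the ratio of the assays, given below, called neither gene in these states. Each run is the 250 bases before the annotated start, 5′ to 3′ on the gene's strand, from RefSeq (GRCh38.p14). Capitals mark a match to the ETS letters CCGGAAG or their reverse complement CTTCCGG. The stretches lie at chr5:140647631-140647880 on the minus strand (NDUFA2) and, on the plus strand, at chr5:132866392-132866641 (UQCRQ), chr12:120437863-120438112 (COX6A1), chr12:4648864-4649113 (NDUFA9), chr16:85799445-85799694 (COX4I1) and chr1:46303448-46303697 (UQCRH).
NDUFA2: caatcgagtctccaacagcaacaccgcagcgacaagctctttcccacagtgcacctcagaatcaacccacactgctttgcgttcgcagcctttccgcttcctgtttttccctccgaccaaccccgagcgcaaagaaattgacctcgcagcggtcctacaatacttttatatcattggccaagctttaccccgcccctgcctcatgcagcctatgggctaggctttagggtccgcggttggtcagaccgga
UQCRQ: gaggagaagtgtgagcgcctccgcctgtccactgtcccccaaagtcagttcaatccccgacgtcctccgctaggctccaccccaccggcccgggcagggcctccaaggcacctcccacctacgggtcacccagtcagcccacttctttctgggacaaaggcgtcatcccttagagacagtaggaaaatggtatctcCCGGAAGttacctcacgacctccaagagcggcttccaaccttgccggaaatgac
COX6A1: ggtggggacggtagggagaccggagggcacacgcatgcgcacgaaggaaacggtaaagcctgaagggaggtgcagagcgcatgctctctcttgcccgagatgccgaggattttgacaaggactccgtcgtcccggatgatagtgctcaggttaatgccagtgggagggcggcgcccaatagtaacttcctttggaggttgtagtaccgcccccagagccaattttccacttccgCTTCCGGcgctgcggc
NDUFA9: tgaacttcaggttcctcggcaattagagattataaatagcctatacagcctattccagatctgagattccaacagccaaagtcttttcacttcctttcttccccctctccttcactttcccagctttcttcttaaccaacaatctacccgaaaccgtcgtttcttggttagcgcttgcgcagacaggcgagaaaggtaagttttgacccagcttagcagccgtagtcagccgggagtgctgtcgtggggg
COX4I1: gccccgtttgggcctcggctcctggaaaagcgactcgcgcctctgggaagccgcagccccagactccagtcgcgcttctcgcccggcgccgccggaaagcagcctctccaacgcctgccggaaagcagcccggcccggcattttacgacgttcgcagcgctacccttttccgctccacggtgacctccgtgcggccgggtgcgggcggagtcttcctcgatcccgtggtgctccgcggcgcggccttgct
UQCRH: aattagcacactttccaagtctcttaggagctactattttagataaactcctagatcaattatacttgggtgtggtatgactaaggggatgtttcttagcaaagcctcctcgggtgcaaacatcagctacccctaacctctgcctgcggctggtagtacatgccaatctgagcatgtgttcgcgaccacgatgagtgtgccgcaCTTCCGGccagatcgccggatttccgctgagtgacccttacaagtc
The match began 54 bases before the start in UQCRQ, 16 in COX6A1 and 46 in UQCRH, and none was found in the other 3 stretches. With the 50 bases after the start added, which are not shown, COX4I1 also held an ETS match and NDUFA9 a YY1 match. Windows from 250 bases before to 50 after the start were available for 73 members, and 27.4% of them held the ETS letters on either strand, against 14.2% of 15843 protein-coding genes. The palindromic NRF1 motif was in 5.48% of the members' windows and 1.75% of all. The YY1 motif, on either strand, was in 5.48% and 1.37%. At least one of the 3 motifs was in 35.6% of the members' windows and 16.6% of all. The ETS letters end in the AAG with which the YY1 motif begins, so 1 stretch can hold both, and a match is a description of the sequence and not a site.

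In both senescent states more members were higher than lower against cycling cells. A gene was called at an edgeR adjusted p under 0.05 over all genes tested, and every change given below is a log2 fold change with its standard error (SE). In RNA-seq, 13 members were called higher and 1 lower after irradiation, 17.1% of the 82 tested, beside 34.9% of all genes (16.2% higher, 18.8% lower). After etoposide the counts were 13 and 1, beside 34.6% of all genes (16.8% higher, 17.8% lower). The share called higher was thus close to that of all genes, and the share called lower was 1.22% in each. The median log2 fold change over the members was 0.19 after irradiation and 0.22 after etoposide, beside 0.03 and 0.00 over all genes. In Ribo-seq, 27 members rose and 4 fell after irradiation, beside 39.8% of all genes called (17.2% higher, 22.6% lower), so 34.2% of members were higher. After etoposide 18 rose and 3 fell, beside 34% called (16.4% higher, 17.6% lower). The Ribo-seq medians were 0.21 and 0.17, beside -0.01 and -0.01 over all genes. The comparisons share the cycling libraries. Without either cycling RNA-seq library the RNA-seq counts fell to between 3 and 5 after irradiation and to between 4 and 5 after etoposide, and with only the 2 groups in the fit they were 36 and 35. They were 7 after irradiation without irradiated replicate 2 and 9 after etoposide without etoposide replicate 2, and the Ribo-seq count after etoposide was 12 without etoposide replicate 2. Counts from these other fits, here and below, are given without the share of all genes called in the same fit. They therefore cannot be set against a background.

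**Figure D1:**
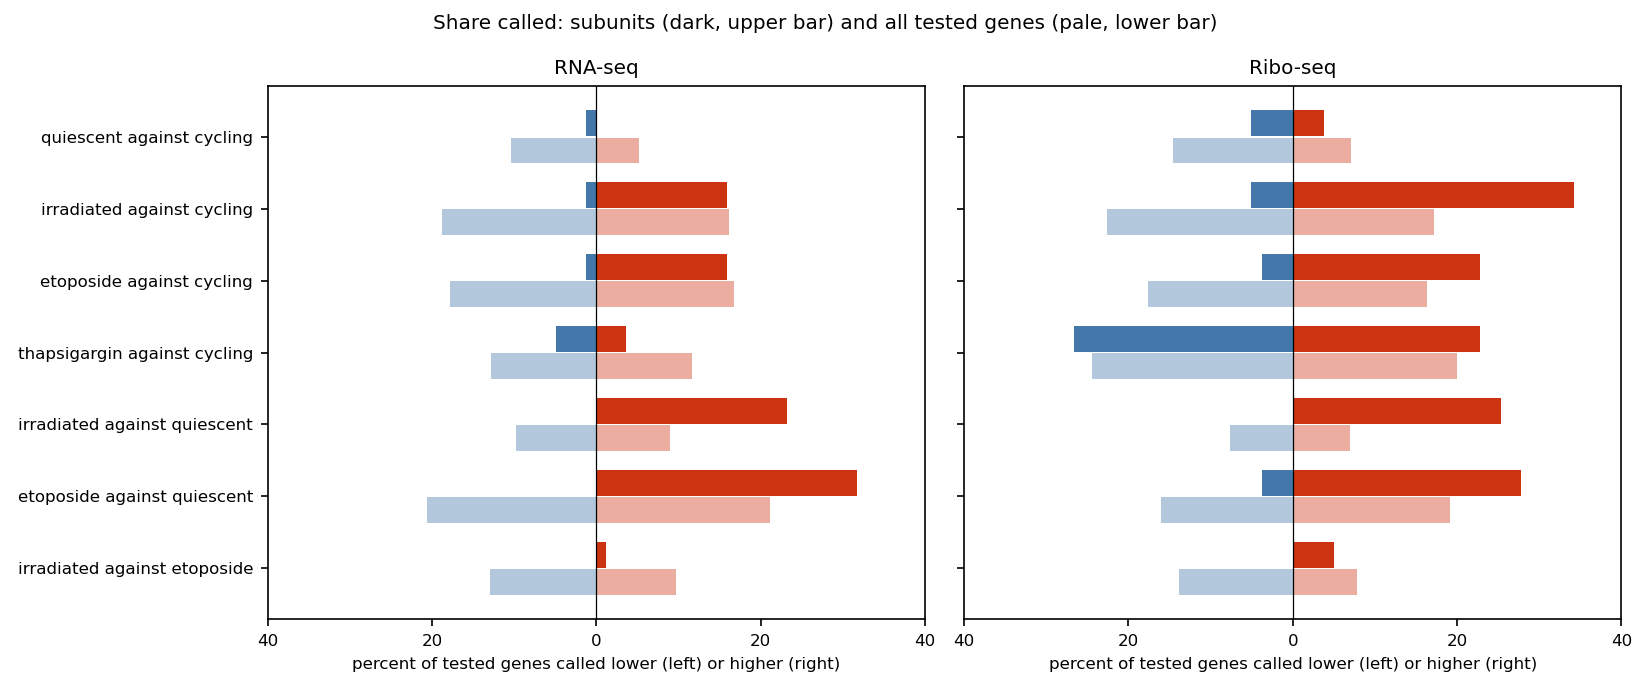
Percent of tested genes called lower (left, blue) or higher (right, red) in each comparison, for the subunits (dark, upper bar) and all tested genes (pale, lower bar), in RNA-seq and Ribo-seq. In comparisons of senescent with cycling or quiescent cells the dark blue bars are short or missing while those of all genes reach both ways.

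Of the members called higher after irradiation, 11 were called in both assays, which is 84.6% of the 13 in RNA-seq and 40.7% of the 27 in Ribo-seq, beside 61.9% and 65.7% for all genes called higher. After etoposide 8 were called in both, 61.5% of 13 and 44.4% of 18, beside 59.9% and 69.1%. The difference from all genes was not tested. By complex, the RNA-seq medians after irradiation were 0.14 for I, 0.06 for II, 0.24 for III, 0.39 for IV and 0.23 for V. In Ribo-seq they were 0.21, 0.23, 0.15, 0.48 and 0.23. After etoposide the medians in the same order were 0.16, 0.13, 0.25, 0.30 and 0.28 in RNA-seq. In Ribo-seq they were 0.05, 0.32, 0.11, 0.23 and 0.23. The Ribo-seq medians of complex IV and of all members include COX4I2, which had 1 cycling, 0 irradiated and 3 etoposide counts. Every complex thus had a median above 0 in both assays and both senescent states, and no difference between complexes was tested. Complex II had only 4 tested genes, with 0 called after etoposide in either assay. Mean footprints in cycling and etoposide-treated cells were low for SDHA (3.85 and 5.10 CPM) and SDHD (2.45 and 3.32 CPM). They were 53.1 and 62.6 CPM for SDHC and 154 and 130 CPM for SDHB. Summed over complex II they were 214 and 201 CPM, so the sum did not rise with the median.

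**Figure D2:**
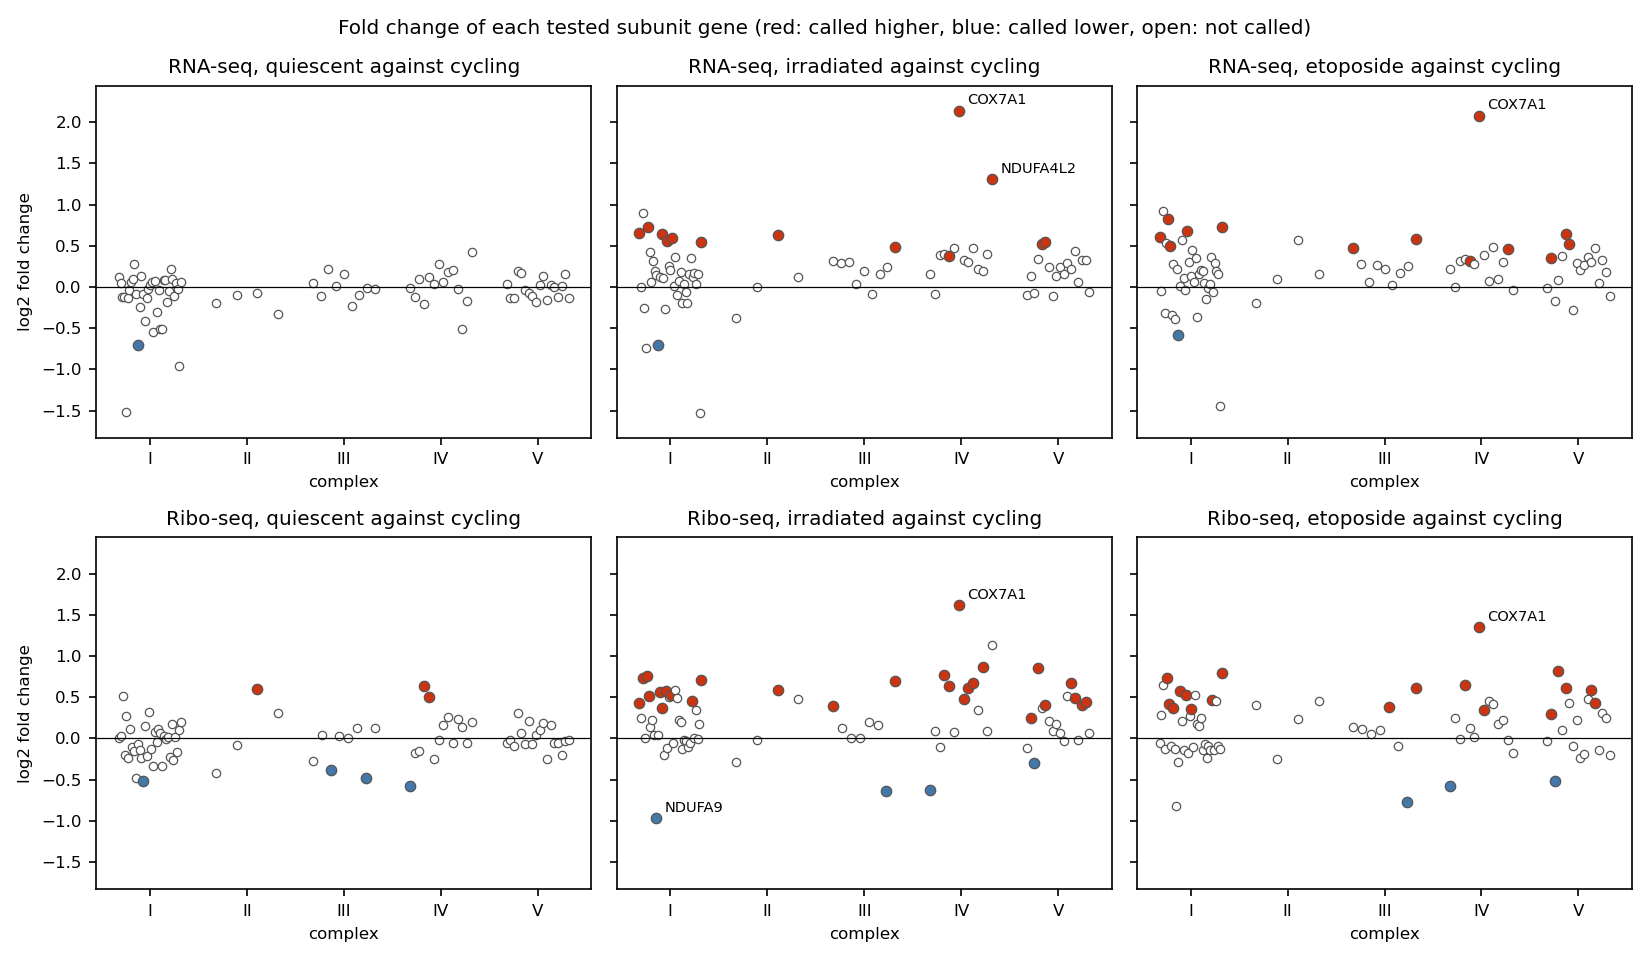
Log2 fold change (y) of each tested subunit gene, grouped by complex (x), in quiescent, irradiated and etoposide-treated against cycling cells, with RNA-seq above and Ribo-seq below. Red points were called higher, blue points lower and open points not called, and COX4I2 is left out for its near-zero counts. COX7A1 stands above all other members in both senescent states and both assays.

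COX7A1 (ENSG00000161281), the isoform of complex IV subunit VIIa known from heart and skeletal muscle, had the largest of the called rises in senescent against cycling cells. Its RNA was at 4.20 and 4.10 CPM in cycling libraries, 6.21, 4.53 and 4.35 in quiescent libraries, 16.9, 19.4 and 18.6 after irradiation and 16.4, 19.0 and 17.3 after etoposide. All 6 senescent libraries were above all cycling and quiescent ones. The log2 fold change against cycling cells was 2.14 ± 0.19 (SE, edgeR adjusted p = 1.94e-06) after irradiation and 2.08 ± 0.19 (SE, edgeR adjusted p = 1.83e-06) after etoposide. Footprints were at 9.94, 12.5 and 13.5 CPM in cycling libraries, 12.3, 11.4 and 11.7 in quiescent libraries, 34.4, 31.3 and 44.5 after irradiation and 31.2, 35.5 and 25.3 after etoposide, again with no overlap. They rose by 1.62 ± 0.21 (SE, edgeR adjusted p = 6.06e-05) and 1.35 ± 0.21 (SE, edgeR adjusted p = 0.00023). These calls held without each library in turn and under every other setting run. The ubiquitous isoform COX7A2 and the related COX7A2L, a factor of supercomplex assembly, were called in footprints. COX7A2 footprints rose by 0.48 ± 0.13 (SE, edgeR adjusted p = 0.00843) after irradiation, from 262 ± 25.2 CPM to 365 ± 22.7 CPM (SD, n = 3 each), and by 0.35 ± 0.13 (SE, edgeR adjusted p = 0.0457) after etoposide, where the groups overlapped and the call was lost without cycling replicates 1 or 2 or etoposide replicates 2 or 3 (adjusted p up to 0.241). COX7A2L footprints rose by 0.62 ± 0.18 (SE, edgeR adjusted p = 0.0142) after irradiation, a call lost without cycling replicate 2 or irradiated replicate 3 (adjusted p up to 0.0697). Neither was called in RNA-seq against cycling cells.

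**Figure D3:**
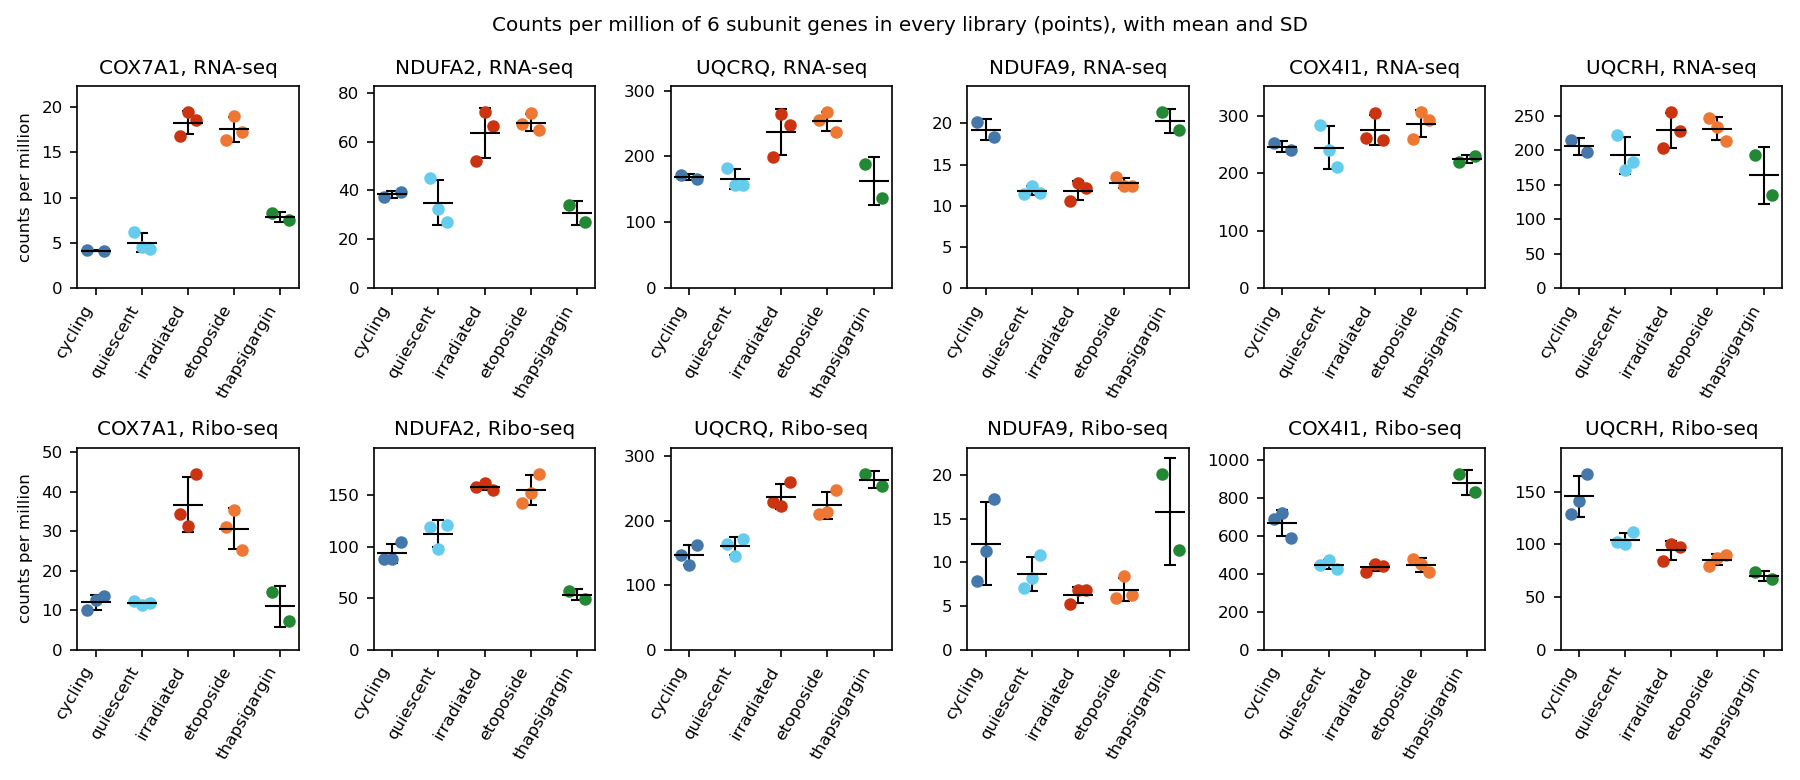
CPM (y, from 0) of 6 members in every library of the 5 states (x), RNA-seq above and Ribo-seq below. Points are libraries, and bars give the mean and SD over 2 or 3 libraries. COX7A1, NDUFA2 and UQCRQ are high in both senescent states in both assays. NDUFA9 RNA is low in the 3 arrested states, and COX4I1 and UQCRH are low there in Ribo-seq. UQCRH RNA overlaps the cycling range in each arrested state. COX4I1 RNA overlaps it in quiescence and lies above it, without a call, in both senescent states.

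Several small accessory subunits of complex I rose in senescence. NDUFA2 (ENSG00000131495), of the matrix arm, was at 37.3 and 39.5 CPM in cycling RNA, 52.0, 72.0 and 66.5 after irradiation and 67.2, 71.6 and 64.5 after etoposide. Its log2 fold changes came to 0.73 ± 0.20 (SE, edgeR adjusted p = 0.0122) and 0.82 ± 0.20 (SE, edgeR adjusted p = 0.0063). In footprints NDUFA2 was at 87.5, 88.1 and 104 CPM in cycling, 157, 161 and 155 in irradiated and 142, 152 and 170.5 in etoposide-treated cells, with no overlap. The changes were 0.76 ± 0.11 (SE, edgeR adjusted p = 0.000158) and 0.73 ± 0.11 (SE, edgeR adjusted p = 0.000206). The footprint calls held without each library, and the RNA-seq calls were lost without cycling replicates 1 or 2 (adjusted p up to 0.0967) for irradiation and without cycling replicate 1 (adjusted p = 0.0651) for etoposide. NDUFV3, an accessory subunit of the NADH-binding module, was at 82.2 and 77.9 CPM in cycling RNA, 116, 123 and 112 after irradiation and 127, 138 and 132 after etoposide. It rose by 0.54 ± 0.10 (SE, edgeR adjusted p = 0.00122) and 0.72 ± 0.10 (SE, edgeR adjusted p = 0.000135) in RNA, and by 0.70 ± 0.11 (SE, edgeR adjusted p = 0.00022) and 0.80 ± 0.11 (SE, edgeR adjusted p = 6.82e-05) in footprints, and its calls held without each library in turn. NDUFB2, of the membrane arm, rose by 0.56 ± 0.14 (SE, edgeR adjusted p = 0.0072) and 0.68 ± 0.14 (SE, edgeR adjusted p = 0.002) in RNA and by 0.58 ± 0.15 (SE, edgeR adjusted p = 0.00869) and 0.53 ± 0.15 (SE, edgeR adjusted p = 0.017) in footprints. Its RNA call after irradiation was lost without cycling replicate 2 (adjusted p = 0.0735), and its footprint call after etoposide without cycling replicates 2 or 3 or etoposide replicates 2 or 3 (adjusted p up to 0.0791). NDUFA1 is a membrane-arm subunit encoded on the X chromosome. Its footprints were at 462, 469 and 427 CPM in cycling, 667, 585 and 573 in irradiated and 445, 414 and 447 in etoposide-treated cells. They were called higher after irradiation and were not called after etoposide. In RNA NDUFA1 rose by 0.65 ± 0.17 (SE, edgeR adjusted p = 0.00862) and 0.60 ± 0.17 (SE, edgeR adjusted p = 0.0134). These calls were lost without cycling replicates 1 or 2 (adjusted p up to 0.0612) for irradiation and without cycling replicates 1 or 2 (adjusted p up to 0.0831) for etoposide. NDUFB1, another membrane-arm subunit, rose in RNA after irradiation by 0.64 ± 0.23 (SE, edgeR adjusted p = 0.0423), a call lost without cycling replicates 1 or 2 or irradiated replicates 1, 2 or 3 (adjusted p up to 0.191).

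No call was made for 2 catalytic core subunits of complex I. NDUFV1, which binds NADH, and NDUFS1, which carries iron-sulfur clusters, were called in neither assay in either senescent state. NDUFS1 RNA was at 197 and 185 CPM in cycling, 181, 201 and 207 in irradiated and 211, 195 and 185 in etoposide-treated cells, so the groups overlapped. Its footprints were at 308 ± 14.1 CPM, 305 ± 17.5 CPM and 294 ± 4.29 CPM (SD, n = 3 each). A call that was not made does not show that these levels were equal.

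NDUFA9 (ENSG00000139180), an accessory subunit between the arms of complex I, was the only member called lower in RNA-seq in the 3 arrested states against cycling cells. Its RNA was at 20.1 and 18.3 CPM in cycling libraries, 11.4, 12.4 and 11.5 in quiescent libraries, 10.6, 12.7 and 12.1 after irradiation and 13.5, 12.4 and 12.4 after etoposide. Both cycling libraries were above all 9 arrested ones. The log2 fold changes came to -0.70 ± 0.14 (SE, edgeR adjusted p = 0.00404) in quiescence, -0.70 ± 0.14 (SE, edgeR adjusted p = 0.0014) after irradiation and -0.59 ± 0.14 (SE, edgeR adjusted p = 0.00449) after etoposide. The quiescence call was lost without cycling replicate 1 (adjusted p = 0.0637) or with only the 2 groups in the fit, and the etoposide call without cycling replicate 1 (adjusted p = 0.062). NDUFA9 footprints were at 7.87, 11.3 and 17.3 CPM in cycling cells, 5.26, 6.79 and 6.85 after irradiation and 5.95, 8.40 and 6.24 after etoposide. They fell after irradiation with a log2 fold change of -0.97 ± 0.33 (SE, edgeR adjusted p = 0.0312), a call lost without cycling replicates 2 or 3 or irradiated replicates 1, 2 or 3 (adjusted p up to 0.171), and their highest cycling value came from replicate 3.

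Complex II, which also serves as succinate dehydrogenase of the TCA cycle, had calls in 1 of its 4 subunits in the senescent states against cycling cells. SDHC, a membrane anchor, was at 51.9 and 58.0 CPM in cycling RNA, 83.8, 92.0 and 79.0 in irradiated and 61.1, 89.9 and 93.6 in etoposide-treated cells. It rose after irradiation by 0.63 ± 0.22 (SE, edgeR adjusted p = 0.0405) in RNA and by 0.59 ± 0.15 (SE, edgeR adjusted p = 0.00764) in footprints. The RNA call was lost without cycling replicates 1 or 2 or irradiated replicates 1, 2 or 3 (adjusted p up to 0.224). The iron-sulfur subunit SDHB was called in no state in either assay, with RNA at 97.7 ± 9.63 CPM in cycling (SD, n = 2) and 97.5 ± 6.59 CPM in irradiated cells (SD, n = 3). SDHA, the flavoprotein, with 6 named pseudogenes, and SDHD, the other anchor, also with 6, were not called in either senescent state against cycling cells.

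In complex III, UQCRQ (ENSG00000164405), a small subunit that contacts cytochrome b, was at 173 and 165 CPM in cycling RNA, 199, 265 and 248 after irradiation and 255, 267 and 238 after etoposide. Its log2 fold changes came to 0.49 ± 0.15 (SE, edgeR adjusted p = 0.0239) and 0.58 ± 0.15 (SE, edgeR adjusted p = 0.0101). The irradiation call was lost without cycling replicates 1 or 2 or irradiated replicates 2 or 3 (adjusted p up to 0.132) and with unstranded counts, and the etoposide call without cycling replicates 1 or 2 (adjusted p up to 0.0788). UQCRQ footprints were at 147, 131 and 163 CPM in cycling, 229, 223 and 261 in irradiated and 211, 214 and 248 in etoposide-treated cells, and they rose by 0.69 ± 0.11 (SE, edgeR adjusted p = 0.000254) and 0.61 ± 0.11 (SE, edgeR adjusted p = 0.000744), calls that held without each library. UQCR10 RNA rose after etoposide by 0.48 ± 0.16 (SE, edgeR adjusted p = 0.0359), a call lost without cycling replicates 1 or 2 or etoposide replicates 1 or 2 (adjusted p up to 0.186) and with unstranded counts. UQCRH (ENSG00000173660), the acidic hinge protein, was called lower in footprints. Its footprints were at 129, 141 and 167 CPM in cycling libraries, 102, 100.4 and 112 in quiescent libraries, 84.0, 101 and 97.9 after irradiation and 79.7, 87.0 and 89.8 after etoposide. All 9 arrested libraries were below all cycling ones. The log2 fold changes came to -0.48 ± 0.11 (SE, edgeR adjusted p = 0.00785) in quiescence, -0.63 ± 0.11 (SE, edgeR adjusted p = 0.000656) after irradiation and -0.77 ± 0.11 (SE, edgeR adjusted p = 0.000139) after etoposide. The first call was lost without cycling replicate 3 (adjusted p = 0.0574), and the others held without each library. UQCRH RNA was at 215 and 197 CPM in cycling and 247, 234 and 214 in etoposide-treated cells and was called in no arrested state, and neither was the ratio of the assays. UQCRH has 4 named pseudogenes and the near-identical copy UQCRHL, whose RNA ran from 7.59 to 15.2 CPM and whose footprints were too few to test. The Rieske protein UQCRFS1 and the core protein UQCRC1 were not called against cycling cells in either senescent state or assay.

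In complex IV, COX4I1 (ENSG00000131143), the ubiquitous isoform of the subunit that regulates the enzyme, fell in footprints in all 3 arrested states. It was at 687, 719 and 590.2 CPM in cycling libraries, 447, 474 and 423 in quiescent libraries, 411, 450.0 and 439 after irradiation and 477, 452 and 408 after etoposide, and no arrested library reached the cycling range. The log2 fold changes came to -0.57 ± 0.09 (SE, edgeR adjusted p = 0.00123), -0.62 ± 0.10 (SE, edgeR adjusted p = 0.000193) and -0.58 ± 0.09 (SE, edgeR adjusted p = 0.000338), and these calls held without each library and in the other settings. Its RNA was at 254 and 240.4 CPM in cycling libraries, 284, 241 and 211 in quiescent libraries, 263, 306 and 258 after irradiation and 260.4, 307 and 294 after etoposide, and it was not called. In edgeR the ratio of the assays was not called for COX4I1 in any arrested state either. COX6A1, the ubiquitous isoform of subunit VIa, with 7 named pseudogenes, rose in footprints in the 3 arrested states. Its footprints were at 47.1, 44.0 and 65.9 CPM in cycling libraries, 70.8, 76.1 and 96.2 in quiescent libraries, 76.5, 91.0 and 101 after irradiation and 69.3, 82.1 and 94.2 after etoposide. The changes were 0.63 ± 0.17 (SE, edgeR adjusted p = 0.0176), 0.77 ± 0.18 (SE, edgeR adjusted p = 0.00337) and 0.65 ± 0.17 (SE, edgeR adjusted p = 0.0108). The quiescence call was lost without cycling replicates 1 or 2 (adjusted p up to 0.074) and with only the 2 groups in the fit, and the etoposide call without cycling replicate 2 or etoposide replicate 3 (adjusted p up to 0.0556). COX8A, in the membrane core, rose in footprints after irradiation from 105 ± 27.3 CPM to 192 ± 38.6 CPM (SD, n = 3 each), by 0.87 ± 0.22 (SE, edgeR adjusted p = 0.00555). COX6B1, which faces the intermembrane space, rose in RNA by 0.38 ± 0.11 (SE, edgeR adjusted p = 0.0154) after irradiation and 0.32 ± 0.11 (SE, edgeR adjusted p = 0.0357) after etoposide. These calls were lost without cycling replicates 1 or 2 or irradiated replicate 2 (adjusted p up to 0.102) and without cycling replicates 1 or 2 or etoposide replicates 1 or 2 (adjusted p up to 0.171). Its footprints rose by 0.64 ± 0.14 (SE, edgeR adjusted p = 0.00214) after irradiation and were not called after etoposide. COX5A, a subunit on the matrix side, was not called against cycling cells in either assay.

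The tissue isoforms COX6A2 (muscle), COX6B2 and COX7B2 (testis) and COX8C had between 0 and 21 RNA-seq counts over all 13 libraries together, so no test was possible. COX4I2, the lung and hypoxia isoform of subunit IV, had 2 RNA-seq counts in all. NDUFA4L2, a paralog of NDUFA4 known as a target of hypoxia-inducible factor, was at 3.54 and 2.65 CPM in cycling libraries, 4.04, 4.64 and 3.83 in quiescent libraries, 8.30, 7.86 and 7.03 after irradiation and 2.27, 2.12 and 4.66 after etoposide. It rose after irradiation by 1.31 ± 0.33 (SE, edgeR adjusted p = 0.00739), a call lost without cycling replicate 2 (adjusted p = 0.0794). NDUFA4 itself rose in RNA after etoposide by 0.46 ± 0.16 (SE, edgeR adjusted p = 0.0436), from 204 ± 13.4 CPM (SD, n = 2) to 280.3 ± 15.8 CPM (SD, n = 3), a call lost without cycling replicates 1 or 2 or etoposide replicates 1, 2 or 3. Its footprints were at 698 ± 53.6 CPM in cycling and 691 ± 73.6 CPM in etoposide-treated cells (SD, n = 3 each) and were not called.

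In complex V, ATP5IF1, which blocks ATP hydrolysis by the synthase, rose in both assays. Its RNA was at 72.9 and 70.7 CPM in cycling libraries, 91.3, 63.3 and 55.0 in quiescent libraries, 106, 107 and 101 after irradiation and 102, 118 and 116 after etoposide. The RNA changes were 0.54 ± 0.17 (SE, edgeR adjusted p = 0.0256), lost without cycling replicates 1 or 2 or irradiated replicates 1 or 2 (adjusted p up to 0.129), and 0.64 ± 0.17 (SE, edgeR adjusted p = 0.011), lost without cycling replicates 1 or 2 (adjusted p up to 0.0781). Its footprints were at 175, 184 and 153 CPM in cycling, 230.0, 228 and 219 in irradiated and 259, 261 and 262 in etoposide-treated cells. They rose by 0.40 ± 0.12 (SE, edgeR adjusted p = 0.0167), a call lost without cycling replicate 3 or irradiated replicate 1 (adjusted p up to 0.0559), and by 0.61 ± 0.12 (SE, edgeR adjusted p = 0.00145), a call that held. The catalytic subunit ATP5F1B rose in footprints by 0.25 ± 0.08 (SE, edgeR adjusted p = 0.0267), lost without cycling replicate 1 or irradiated replicate 3 (adjusted p up to 0.0808), and by 0.29 ± 0.08 (SE, edgeR adjusted p = 0.0122), lost without etoposide replicate 2 (adjusted p = 0.0633). Its partner in the catalytic head, ATP5F1A, was called in neither assay in the arrested states, with footprints at 1517 ± 86.0 CPM in cycling and 1479 ± 43.9 CPM in etoposide-treated cells (SD, n = 3 each). The central-stalk subunit ATP5F1C fell in footprints, which were at 565, 561 and 521 CPM in cycling, 443, 444 and 451 in irradiated and 366, 379.6 and 403 in etoposide-treated cells. The changes were -0.30 ± 0.09 (SE, edgeR adjusted p = 0.0201), lost without cycling replicates 1 or 2 or irradiated replicates 1, 2 or 3 (adjusted p up to 0.0857), and -0.52 ± 0.09 (SE, edgeR adjusted p = 0.000701), which held without each library. In RNA, ATP5F1B rose after etoposide by 0.35 ± 0.12 (SE, edgeR adjusted p = 0.0343), and the stalk subunit ATP5F1E rose after irradiation by 0.52 ± 0.17 (SE, edgeR adjusted p = 0.0265). The first was lost without cycling replicates 1 or 2 or etoposide replicates 2 or 3 (adjusted p up to 0.213) and the second without cycling replicates 1 or 2 or irradiated replicates 2 or 3 (adjusted p up to 0.166). Another stalk subunit, ATP5F1D, rose in footprints by 0.85 ± 0.28 (SE, edgeR adjusted p = 0.0262) and 0.82 ± 0.27 (SE, edgeR adjusted p = 0.0339). These calls were lost without cycling replicates 2 or 3 or irradiated replicate 2 (adjusted p up to 0.0978) and without cycling replicates 2 or 3 or etoposide replicates 1, 2 or 3 (adjusted p up to 0.13). Of the genes for the c-ring subunit, ATP5MC1 rose in RNA after etoposide by 0.52 ± 0.14 (SE, edgeR adjusted p = 0.0102), lost without cycling replicate 2 (adjusted p = 0.114), while ATP5MC2 and ATP5MC3 were not called against cycling cells. ATP5MC1 and ATP5MC2 have 8 and 5 named pseudogenes, and ATP5MC3 has none.

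Arrest without senescence was examined by setting quiescent against cycling cells. In RNA-seq 1 member of 82 was called, NDUFA9 as above, beside 15.6% of all genes (5.18% higher, 10.4% lower), and the members' median was -0.03 beside 0.02 over all genes. In Ribo-seq 3 rose and 4 fell, 8.86% of the members beside 21.7% of all genes (7.09% higher, 14.6% lower), with a median of -0.02 beside 0.02. The Ribo-seq count of 7 was 3 without cycling replicate 1, 4 without cycling replicate 2 or 3, and 6 without quiescent replicate 1. COX6A1 rose and COX4I1 and UQCRH fell as given above. SDHC footprints rose by 0.60 ± 0.15 (SE, edgeR adjusted p = 0.0124), from 46.8, 55.6 and 56.8 CPM to 76.9, 84.3 and 79.7, and COX6B1 footprints by 0.50 ± 0.14 (SE, edgeR adjusted p = 0.0184). Both calls were lost without cycling replicate 1 (adjusted p = 0.0583) for SDHC and without cycling replicate 1 (adjusted p = 0.078) for COX6B1. NDUFB11 and UQCRB fell, at -0.51 ± 0.16 (SE, edgeR adjusted p = 0.0346) and -0.38 ± 0.12 (SE, edgeR adjusted p = 0.0405), calls lost without cycling replicates 1, 2 or 3 or quiescent replicates 1 or 2 (adjusted p up to 0.139) and without cycling replicates 2 or 3 or quiescent replicates 1, 2 or 3 (adjusted p up to 0.178). With the replicate number as a block the same 7 genes were called and COX6C, a small subunit of complex IV, was added at -0.25 (edgeR adjusted p = 0.0433).

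Senescent cells were then set against quiescent ones, which compares states that are all arrested. After irradiation 19 members were higher and 0 lower in RNA-seq, 23.2% beside 18.7% of all genes (9.03% higher, 9.72% lower). In Ribo-seq 20 were higher and 0 lower, 25.3% beside 14.6% of all genes (6.92% higher, 7.64% lower). After etoposide 26 were higher and 0 lower in RNA-seq, 31.7% beside 41.7% (21.1% higher, 20.6% lower), and in Ribo-seq 22 and 3, 31.6% beside 35.4% (19.2% higher, 16.1% lower). Medians were 0.25 and 0.24 in RNA-seq and 0.20 and 0.14 in Ribo-seq. Over all genes they lay between -0.02 and 0.01. These comparisons share the quiescent libraries, of which replicate 3 of the RNA-seq had the most unmapped and the fewest multi-mapping reads (40.6% and 9.43%). The RNA-seq count after irradiation was 6 without quiescent replicate 2, 9 without quiescent replicate 3, 5 without irradiated replicate 2 and 10 without irradiated replicate 3. The Ribo-seq count after irradiation was 10 without irradiated replicate 1, 11 without irradiated replicate 2, 11 without quiescent replicate 2, and 10 with no filter on low counts.

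Apart from NDUFA13 and COX4I2, which lay near 0 CPM, COX7A1 had the largest rise here too, with 1.86 ± 0.16 (SE, edgeR adjusted p = 5.38e-06) and 1.80 ± 0.16 (SE, edgeR adjusted p = 2.08e-06) in RNA and 1.64 ± 0.21 (SE, edgeR adjusted p = 0.000144) and 1.38 ± 0.21 (SE, edgeR adjusted p = 0.000222) in footprints. NDUFA2 RNA was higher by 0.86 ± 0.18 (SE, edgeR adjusted p = 0.00426) and 0.96 ± 0.18 (SE, edgeR adjusted p = 0.000782), and NDUFB2 RNA by 0.69 ± 0.12 (SE, edgeR adjusted p = 0.00162) and 0.82 ± 0.12 (SE, edgeR adjusted p = 0.000172), calls that held without each library. COX8A RNA was at 93.8, 95.2 and 69.3 CPM in quiescent, 107, 171 and 142 in irradiated and 155, 164 and 135 in etoposide-treated cells, with changes of 0.70 ± 0.17 (SE, edgeR adjusted p = 0.0106), lost without irradiated replicate 2 (adjusted p = 0.0643), and 0.81 ± 0.17 (SE, edgeR adjusted p = 0.00167), which held. SDHC RNA was higher by 0.70 ± 0.19 (SE, edgeR adjusted p = 0.0236) after irradiation, lost without quiescent replicates 2 or 3 or irradiated replicates 1 or 2 (adjusted p up to 0.0896), and NDUFA4L2 RNA by 0.89 ± 0.28 (SE, edgeR adjusted p = 0.0416), lost without any 1 of the 6 libraries compared. The smallest called RNA differences after irradiation were those of ATP5MC3 (0.31), the acyl carrier NDUFAB1 (0.37), UQCR11 (0.40), ATP5MG (0.45) and NDUFA3 (0.46), and each was lost without quiescent replicate 2 or 3. After etoposide they were those of UQCRFS1 (0.26), NDUFB11 (0.38), UQCR11 (0.38), UQCR10 (0.43) and ATP5MC3 (0.47), of which that of ATP5MC3 held without each library and the others were lost without quiescent replicate 3. NDUFA11 RNA was higher after etoposide by 1.04 ± 0.34 (SE, edgeR adjusted p = 0.0243), lost without etoposide replicate 2 (adjusted p = 0.0818). NDUFA13, a complex I subunit also known as GRIM-19, gave 2.04 ± 0.48 (SE, edgeR adjusted p = 0.00407) after etoposide, but at 0.374, 0.0755 and 0.202 CPM in quiescent and 0.699, 1.24 and 0.782 in etoposide-treated cells it lay near the filter. NDUFA3, another small subunit of complex I, was higher in footprints by 0.75 ± 0.13 (SE, edgeR adjusted p = 0.00118) and 0.65 ± 0.12 (SE, edgeR adjusted p = 0.00126), and UQCR10, a small subunit of complex III, by 0.67 ± 0.10 (SE, edgeR adjusted p = 0.000539) and 0.41 ± 0.10 (SE, edgeR adjusted p = 0.00641). The ATP synthase membrane subunit ATP5MG rose in footprints by 0.76 ± 0.22 (SE, edgeR adjusted p = 0.0349) and 0.72 ± 0.22 (SE, edgeR adjusted p = 0.0187), calls lost without quiescent replicates 1 or 2 or irradiated replicates 1 or 2 (adjusted p up to 0.127) and without etoposide replicate 1 (adjusted p = 0.106), and it has 8 named pseudogenes. COX7B and COX8A footprints were higher after irradiation by 0.72 ± 0.20 (SE, edgeR adjusted p = 0.0298) and 0.73 ± 0.21 (SE, edgeR adjusted p = 0.037), lost without quiescent replicates 2 or 3 or irradiated replicates 1, 2 or 3 (adjusted p up to 0.0993) for COX7B and without quiescent replicate 2 or irradiated replicates 1, 2 or 3 (adjusted p up to 0.167) for COX8A. NDUFB1 and ATP5IF1 footprints were higher after etoposide by 0.71 ± 0.19 (SE, edgeR adjusted p = 0.011), lost without etoposide replicate 3 (adjusted p = 0.0514), and 0.67 ± 0.12 (SE, edgeR adjusted p = 0.000748), which held. COX4I2 is among the 22 counted as higher in Ribo-seq after etoposide with 3 counts against 0. It passed the filter only through the thapsigargin libraries, so no fold is given for it, and without it 21 members were higher. Of the members lower after etoposide, ATP5F1C footprints differed from quiescence by -0.43 ± 0.09 (SE, edgeR adjusted p = 0.00273), a call that held without each library. ATP5ME and COX6B1 footprints differed by -0.34 ± 0.09 (SE, edgeR adjusted p = 0.0126) and -0.37 ± 0.14 (SE, edgeR adjusted p = 0.0481), calls lost without quiescent replicate 1 or etoposide replicate 1 (adjusted p up to 0.0614) and without quiescent replicates 1 or 2 or etoposide replicates 1, 2 or 3 (adjusted p up to 0.156).

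Irradiated cells were set against etoposide-treated ones to compare the inducers of senescence. In RNA-seq 1 of 82 was called, beside 22.6% of all genes (9.67% higher, 12.9% lower), and in Ribo-seq 4 of 79, beside 21.7% (7.77% higher, 13.9% lower). The Ribo-seq count was 1 without etoposide replicate 1, 3 without etoposide replicate 3 and 2 without each other library of the comparison, but 8 with DESeq2 or without thapsigargin in the fit. With only the 2 groups in the fit it was 9, and the RNA-seq count was 7. NDUFA4L2 RNA was higher after irradiation by 1.35 ± 0.28 (SE, edgeR adjusted p = 0.00411), and the irradiated libraries, all at or above 7.03 CPM, lay above the etoposide ones, all at or below 4.66 CPM. The call held without each library. In footprints NDUFA1 was at 667, 585 and 573 CPM after irradiation and 445, 414 and 447 after etoposide, a difference of 0.48 ± 0.11 (SE, edgeR adjusted p = 0.00645) that held without each library. COX6B1 differed by 0.51 ± 0.14 (SE, edgeR adjusted p = 0.0156), lost without irradiated replicate 3 or etoposide replicate 1 (adjusted p up to 0.0611). COX8A and ATP5ME differed by 0.64 ± 0.22 (SE, edgeR adjusted p = 0.0476) and 0.30 ± 0.10 (SE, edgeR adjusted p = 0.0366), and leaving out a library ended both calls (without irradiated replicates 1, 2 or 3 or etoposide replicates 1, 2 or 3 (adjusted p up to 0.191) for COX8A, and without irradiated replicates 1 or 2 or etoposide replicates 1, 2 or 3 (adjusted p up to 0.117) for ATP5ME).

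Translational efficiency, the ratio of footprints to RNA, was tested as the interaction of assay and state. In edgeR no member was called in quiescent, irradiated or etoposide-treated against cycling cells or between the inducers, beside 0.00854%, 0.0512% (0.0427% higher, 0.00854% lower), 0.0683% (0.0256% higher, 0.0427% lower) and 0% of 11715 genes. At an unadjusted p under 0.05 there were 9, 5, 9 and 11 of 78 members (11.5%, 6.41%, 11.5% and 14.1%), beside 3.47%, 6.69%, 3.83% and 6.56% of all genes. DESeq2 called 0, 1, 2 and 0 members. The median log2 change of the ratio was 0.14 in quiescence, 0.15 after irradiation and -0.13 after etoposide, beside 0.08, 0.07 and -0.03 over all genes. Between the inducers it was 0.27 in favour of irradiation, with 72 of 78 members above 0, beside 0.09 and 7325 of 11715 for all genes. In the separate fits the members' medians between the inducers were 0.08 in Ribo-seq and -0.01 in RNA-seq, beside 0.04 and 0.06 over all genes. For the ratio the libraries of both assays were scaled together, so its medians and signs can carry an offset from the scaling. The size of that offset was not tested. In cycling, quiescent, irradiated and etoposide-treated cells the ratio crosses the gene lists of the assays, and in thapsigargin-treated cells it does not, so the list difference enters the thapsigargin comparison of ratios. Its part was not tested.

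Thapsigargin against cycling cells gave few calls in RNA and many in footprints. In RNA-seq 3 members rose and 4 fell, beside 24.5% of all genes called (11.7% higher, 12.8% lower), and the median was -0.14 beside -0.03 over all genes. Without cycling replicate 1 the number called was 1, without cycling replicate 2 it was 3, without thapsigargin replicate 1 it was 12, and the 2 groups alone gave 2. COX7A1 rose by 0.93 ± 0.19 (SE, edgeR adjusted p = 0.00403), from 4.20 and 4.10 CPM to 8.26 and 7.51, and this call held without each library. NDUFA11, of the membrane arm of complex I, was at 9.45 and 8.87 CPM in cycling and 25.4 and 30.0 in treated cells, a change of 1.59 ± 0.42 (SE, edgeR adjusted p = 0.0137), and UQCR11 rose by 0.53 ± 0.16 (SE, edgeR adjusted p = 0.0282). NDUFA4L2 fell, at -1.33 ± 0.37 (SE, edgeR adjusted p = 0.0189), from 3.54 and 2.65 CPM to 0.926 and 1.51. The complex I subunits NDUFB4 and NDUFS5 fell, at -0.58 ± 0.16 (SE, edgeR adjusted p = 0.0196) and -0.57 ± 0.14 (SE, edgeR adjusted p = 0.0118), and so did COX6B1, at -0.40 ± 0.12 (SE, edgeR adjusted p = 0.0244). Each of these calls other than that of COX7A1 was lost without at least one library, among them NDUFA11 without cycling replicates 1 or 2 (adjusted p up to 0.0921) and NDUFA4L2 without cycling replicate 1 or thapsigargin replicate 1 (adjusted p up to 0.149).

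In Ribo-seq 18 members rose and 21 fell, 49.4% beside 44.4% of all genes (20% higher, 24.4% lower), so the share called was close to the background. The median was -0.10 beside -0.11 over all genes, and the same with members at 0 set to their bounds. Of the 49 tested members with a named pseudogene 8 rose and 17 fell, and of the 30 without one 10 rose and 4 fell. The 10 include COX4I2, whose call is no support for the reason given below. COX6A1 footprints were at 47.1, 44.0 and 65.9 CPM in cycling and 306 and 276 in treated cells, a rise of 2.48 ± 0.19 (SE, edgeR adjusted p = 8.31e-07). ATP5PD, of the peripheral stalk of ATP synthase, which overlaps the gene KCTD2, went from 272, 288 and 262 to 1319 and 915 CPM, a rise of 2.03 ± 0.15 (SE, edgeR adjusted p = 6.09e-07). ATP5MJ, a small membrane subunit without a named pseudogene, went from 74.4, 83.9 and 111 to 329.5 and 387 CPM, a rise of 2.00 ± 0.17 (SE, edgeR adjusted p = 1.28e-06). No library of either group overlapped for these 3 genes. They were also called higher in translational efficiency, by 2.23 ± 0.26 (SE, edgeR adjusted p = 3.17e-06), 2.25 ± 0.26 (SE, edgeR adjusted p = 2.46e-06) and 2.26 ± 0.25 (SE, edgeR adjusted p = 1.44e-06), and none was called in RNA-seq. ATP5MG footprints rose by 1.00 ± 0.25 (SE, edgeR adjusted p = 0.0059), a call lost without thapsigargin replicate 2 (adjusted p = 0.0955). COX4I2 had 13 footprint counts in the treated libraries against 1 in the cycling ones, a ratio of 114 in CPM (95% counting interval 17.1 to 4843). It passed the filter only through the treated libraries, so its count among the 18 is no support, and without it 17 members were higher. COX4I1 footprints, lower in the arrested states, were higher here by 0.40 ± 0.11 (SE, edgeR adjusted p = 0.00774), a call lost without thapsigargin replicate 1 (adjusted p = 0.0794).

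The largest falls in footprints with counts in every library were in COX7B, a small subunit of complex IV, from 112, 145 and 145 to 23.4 and 55.8 CPM, and in NDUFA4, from 667, 759 and 666 to 238 and 285 CPM. The changes came to -1.76 ± 0.27 (SE, edgeR adjusted p = 0.000196) and -1.41 ± 0.11 (SE, edgeR adjusted p = 1.08e-06). ATP5ME and ATP5MK, of the membrane part of ATP synthase, fell, at -1.27 ± 0.12 (SE, edgeR adjusted p = 3.39e-06) and -1.22 ± 0.18 (SE, edgeR adjusted p = 0.000182). The efficiency of all 4 was called lower, at -1.36 ± 0.36 (SE, edgeR adjusted p = 0.0102), -1.22 ± 0.22 (SE, edgeR adjusted p = 0.000466), -1.11 ± 0.23 (SE, edgeR adjusted p = 0.00191) and -1.14 ± 0.34 (SE, edgeR adjusted p = 0.0192). The call for COX7B was lost without RNA thapsigargin replicate 1 or Ribo thapsigargin replicate 1 (adjusted p up to 0.0803), and that for ATP5MK without RNA cycling replicate 2 or RNA thapsigargin replicate 1 or Ribo thapsigargin replicate 1 (adjusted p up to 0.106). NDUFA2 and NDUFS5, higher in senescent footprints, were lower here, at -0.81 ± 0.14 (SE, edgeR adjusted p = 0.000559) and -0.68 ± 0.10 (SE, edgeR adjusted p = 0.000163). SDHA, SDHD and UQCR11 had 0 counts in both treated Ribo-seq libraries, against 125, 79 and 47 counts over the 3 cycling ones. With 3 counts over the group as the floor, they were at least 4.75-fold, 3.00-fold and 1.79-fold lower, and at the cycling level 14.3, 9.01 and 5.36 counts would have been seen. These intervals of counting error do not cover the difference in gene lists or in multi-mapped reads, and SDHA and SDHD have 6 named pseudogenes each. Over the members, translational efficiency was called higher for 9 and lower for 11, 25.6% beside 20.8% of all genes (7.89% higher, 12.9% lower).

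**Figure D4:**
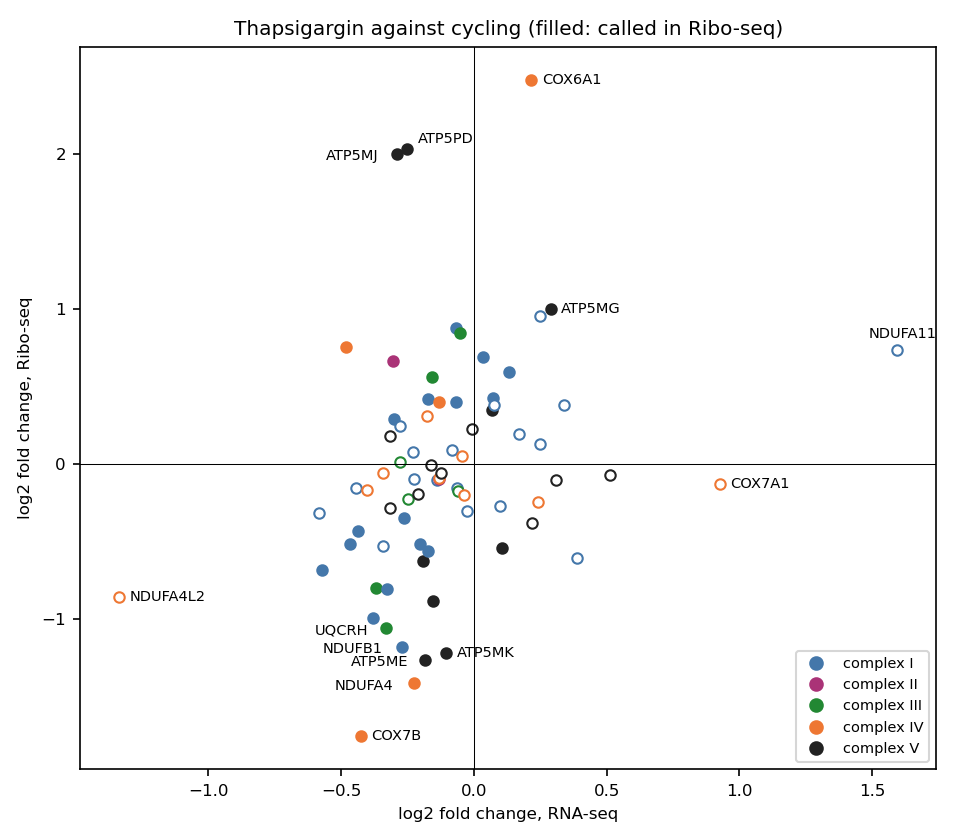
Log2 fold change of thapsigargin-treated against cycling cells in RNA-seq (x) and Ribo-seq (y) for each subunit gene tested in both assays, coloured by complex. Points filled in were called in Ribo-seq, and members with 0 treated footprint counts and COX4I2 are left out. COX6A1, ATP5PD and ATP5MJ stand near or above 2 on the Ribo-seq axis while their RNA values lie between -0.29 and 0.22.

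The subunits encoded by mitochondrial DNA, which are made on mitochondrial ribosomes, differed between the senescent states in level. Their 13 mRNAs were outside the tested genes, so their values are given with no test. Summed over the 13, RNA-seq gave 3323 and 4418 CPM in cycling libraries, 389.9, 1728 and 1517 in quiescent libraries, 1677, 1020.0 and 1169 after irradiation and 3490.3, 5076 and 5030.0 after etoposide. All irradiated libraries were below all cycling and all etoposide ones, and the etoposide range overlapped the cycling range. The quiescent range covered the irradiated one, so the low level was not particular to irradiation. Thapsigargin RNA-seq libraries were at 986 and 2172 CPM. Ribo-seq gave 949.8, 1291 and 1198 CPM for cycling cells, 169.9, 739 and 649.5 for quiescent, 616, 450.4 and 438 for irradiated and 1182, 1609 and 1389 for etoposide-treated ones. The thapsigargin-treated cells had 183 and 187 CPM, in libraries where 65.2% and 66.9% of reads mapped to several places and were not counted. Whether these footprint sums measure translation on mitochondrial ribosomes was not tested. The nuclear-encoded members, summed the same way, had Ribo-seq means of 14810.5 ± 241 CPM for cycling cells, 14457 ± 331 CPM for quiescent, 16695 ± 509.7 CPM for irradiated and 15790.2 ± 164 CPM for etoposide-treated ones (SD, n = 3 each). MT-CO1, the catalytic subunit of complex IV, was at 1438 and 1910.3 CPM in cycling RNA, 813, 525 and 555 in irradiated and 1691, 2297 and 2206 in etoposide-treated cells. Quiescent replicate 1 was the lowest quiescent library in both assays.

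**Figure D5:**
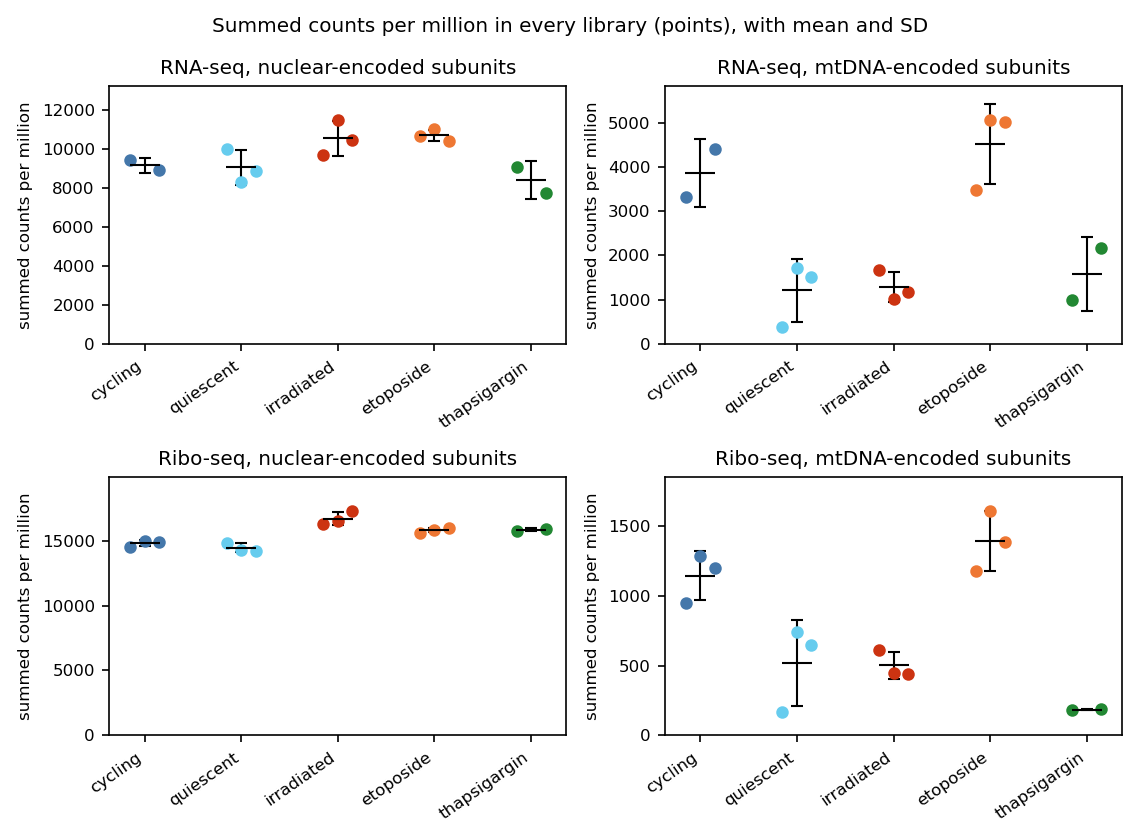
Summed CPM (y, from 0) of the 90 nuclear-encoded members (left) and the 13 mtDNA-encoded subunits (right) in every library of the 5 states (x), RNA-seq above and Ribo-seq below. Points are libraries and bars give the mean and SD over 2 or 3 libraries. The irradiated points lie below the cycling and etoposide points in the right panels and not in the left ones. In the right panels the quiescent range covers the irradiated one, and the thapsigargin points also lie below the cycling ones.

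Other genes of the pathway were counted by list, in comparisons that share the cycling libraries. Of the 50 assembly factors, 4 rose and 5 fell in RNA after irradiation and 7 and 2 after etoposide, 18% in each state, below the background given above. COX14, an assembly factor of complex IV, rose most, by 1.09 ± 0.18 (SE, edgeR adjusted p = 0.000456) and 1.30 ± 0.18 (SE, edgeR adjusted p = 0.000112). Of 16 regulators of mitochondrial biogenesis tested in Ribo-seq, 0 rose and 7 fell after irradiation and 0 and 8 after etoposide, beside 22.6% and 17.6% of all genes called lower. In RNA-seq 1 rose and 1 fell of 17 after irradiation, and 1 and 2 after etoposide. That is 11.8% and 17.6% called, below the 34.9% and 34.6% of all genes. In footprints TFAM, which packages and transcribes mitochondrial DNA, fell, at -0.90 ± 0.19 (SE, edgeR adjusted p = 0.00221) and -0.72 ± 0.19 (SE, edgeR adjusted p = 0.00877), and NRF1, a transcription factor of nuclear genes for mitochondria, fell too, at -0.58 ± 0.16 (SE, edgeR adjusted p = 0.0111) and -0.53 ± 0.15 (SE, edgeR adjusted p = 0.0171). Of 16 TCA cycle genes, 3 rose and 5 fell in footprints after irradiation and 4 and 6 after etoposide, beside 39.8% and 34% of all genes called. In RNA-seq 2 rose and 2 fell after irradiation and 2 and 3 after etoposide, beside 34.9% and 34.6%. FH, fumarase, fell, at -0.75 ± 0.15 (SE, edgeR adjusted p = 0.0013) and -0.82 ± 0.15 (SE, edgeR adjusted p = 0.000742). After thapsigargin 11 of the 16 rose in footprints and 0 fell, beside 20% of all genes called higher. The complex III subunit CYC1, which holds cytochrome c1, fell in footprints, at -0.43 ± 0.13 (SE, edgeR adjusted p = 0.0151) and -0.40 ± 0.13 (SE, edgeR adjusted p = 0.0248), and CYCS, the carrier itself, was called in neither senescent state.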

How the data were processed

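RNA-seq and Ribo-seq libraries of IMR90 cells were deposited as counts of reads per gene, made by the authors with STAR 2.7.10b against hg38, per the submitters' processing notes, which also name bcl2fastq and DESeq2 1.36.0. Counts of the reverse strand (column 4) were used for RNA-seq and of the forward strand (column 3) for Ribo-seq, and the file rows for unmapped, multi-mapping, featureless and ambiguous reads were left out. Thapsigargin Ribo-seq and all RNA-seq libraries list 62703 genes and the other Ribo-seq libraries 60664, and 60534 shared IDs were used. Protein-coding genes, 19310 by symbol, were filtered by edgeR's filterByExpr, scaled by TMM and fitted in 1 robust quasi-likelihood model per assay over all 5 states (edgeR 4.0.16). Translational efficiency was the interaction of assay and state over 27 libraries. P-values were adjusted by Benjamini-Hochberg over all genes, and CPM are counts per 1000000 of the TMM-scaled library size. The fits were tested on simulated counts. Alternatives were DESeq2, its size factors, no filter, unstranded counts, a replicate block, the 2 compared groups alone, each library left out and, chosen after the data were seen, a fit without thapsigargin. The members and gene lists were chosen with earlier results of these data known. The named genes were, per comparison, the 5 called members with the largest and the 5 with the smallest log2 fold change, plus isoform families, SDHA to SDHD, ATP5IF1 and core subunits. Some named results are not reported here. Pseudogenes were counted by symbol among the names that map the gene IDs. Promoters and motif counts came from RefSeq GRCh38.p14 tables. Levels per length and protein sequences were not used here. Same-numbered replicates of 25 pairs of groups correlated between -0.398 and 0.716. Among pairs with 3 replicates, all were above 0.1 for Ribo-seq cycling and quiescent (0.189 to 0.329) and for RNA-seq and Ribo-seq of etoposide (0.143 to 0.444). Among pairs with 2 replicates, both were above 0.1 for RNA-seq etoposide and thapsigargin (0.203 to 0.716). The same held for RNA-seq and Ribo-seq of cycling cells (0.153 to 0.195). RNA-seq cycling and thapsigargin gave 0.378 for each replicate number. With 2 libraries in both groups these values are equal by construction, so they show no agreement between replicates.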

Additional observations from a re-analysis of the deposited data

Results flagged for a closer look

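A result was taken up here where the inducers of senescence differed by a direct test of irradiated against etoposide-treated libraries. This held for 5 results, none of which has an explanation weighed here. NDUFA4L2 RNA was higher after irradiation by 1.35 on the log2 scale, in 3 of 3 libraries against each etoposide library. Footprints were higher after irradiation for NDUFA1 by 0.48, for COX6B1 by 0.51, for COX8A by 0.64 and for ATP5ME by 0.30, in each case without overlap of the groups. The COX8A call was lost without any 1 of the 6 libraries. No group held 4 or more libraries, so no check for a library far from the others was possible.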

How the results depend on the processing

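Of 262 alternatives to the 19 counts of called subunits, 208 stayed within 1.5 times the count. The 19 include efficiency counts of 0 that stayed 0 without each library in turn. The 208 therefore do not measure how stable the other counts were. With only the 2 groups in the fit, RNA-seq counts were 0 for quiescent against cycling, 36 for irradiated, 35 for etoposide and 2 for thapsigargin against cycling, and 7 between the inducers, and Ribo-seq counts were 34 for etoposide against cycling and 9 between the inducers. Translational efficiency counts then were 2 for irradiated, 3 for etoposide and 10 for thapsigargin. With DESeq2, RNA-seq gave 3 for quiescent against cycling and 2 between the inducers, Ribo-seq gave 8 between the inducers, and efficiency gave 1 for irradiated and 2 for etoposide. Without the thapsigargin libraries, RNA-seq gave 3 for quiescent and 2 between the inducers, Ribo-seq gave 11 for quiescent and 8 between the inducers, and efficiency gave 1 for etoposide. Without a filter on low counts, RNA-seq gave 2 and Ribo-seq 2 between the inducers, Ribo-seq gave 10 for irradiated against quiescent, and efficiency gave 2 for etoposide. The replicate block gave RNA-seq counts of 1, 16, 15, 7, 16, 25 and 1 and Ribo-seq counts of 8, 32, 24, 43, 22, 27 and 5, in the order quiescent, irradiated, etoposide and thapsigargin against cycling, irradiated and etoposide against quiescent, and irradiated against etoposide. For efficiency the block gave 0, 0, 1 and 20 against cycling and 0 between the inducers. Leaving out 1 library at a time gave, in the same order, RNA-seq ranges of 0 to 4, 3 to 13, 4 to 12, 1 to 12, 5 to 24, 18 to 34 and 1 to 1, and Ribo-seq ranges of 3 to 7, 24 to 30, 12 to 19, 33 to 41, 10 to 19, 18 to 24 and 1 to 3. Efficiency ranges were 0 to 0 in each arrested state and between the inducers, and 13 to 21 for thapsigargin. Where leaving out a library left 1 cycling or thapsigargin library, it was assumed to vary like the other groups. The share of all genes called in each of these fits is not given, so these counts have no background beside them. The cause of the moves was not tested. Of 1660 alternatives to the 132 single changes named by gene, 1395 kept direction and call, 265 lost the call and 0 reversed. Levels per length and footprints per codon were planned and not run, since no gene lengths were at hand. The thapsigargin Ribo-seq depth limits small members, for which 0 counts allow the levels given in the text.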
